A study of Rattus norvegicus with 12 samples.

Results

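Cholesterol and fatty acid synthesis was followed as a module of 39 genes in 2 rat hepatic cell lines, each grown with rapamycin or its vehicle. The genes fall into 5 regulators, 18 enzymes of the sterol branch and 16 enzymes of the fatty acid branch, which includes the desaturases, elongases and acyl-CoA synthetases. Probes were assigned to the members by gene alone, with every probe of a gene taken. The list of members itself was drawn up with earlier results of these data known. The RatRef-12 Expression BeadChip, a whole-transcriptome bead array, held 22523 probes for 13337 named genes, and 34 of these probes were named for 33 of the 39 genes: 4 regulators, 15 sterol genes and 14 fatty acid genes. Tm7sf2 had 2 probes and each other gene 1. Insig1, Hmgcs1, Mvk, Lss, Fasn and Elovl1 had no probe named for them in the annotation used. Srebf2, Acaca and Elovl6 had a probe that was detected on 0 of the 12 arrays, so 30 genes carried a measurable signal in at least 1 group.

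The 4 groups were GN5 cells with rapamycin, GN5 cells with vehicle, H5D cells with rapamycin and H5D cells with vehicle, with 3 arrays each. Treated cells received 50 nM rapamycin, which inhibits mTOR, a kinase that couples nutrients to growth, and the others received dimethyl sulfoxide, both over 24 h. Both lines are tumorigenic and carry an intermediate rapamycin response in the labels. GN5 cells were derived from the rat liver epithelial line WB-F344 by treatment with the carcinogen N-methyl-N'-nitro-N-nitrosoguanidine (abbreviated NNN in the study) and double every 21.6 h. H5D cells come from a hepatocellular carcinoma induced by an azo dye in a Fischer rat and double every 26.6 h. The growth medium was DMEM/F12 for GN5 and Waymouth for H5D, so line and medium cannot be told apart. The arrays of a group came from plates of 1 line, and the p-values measure the spread between those plates.

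Sterols and fatty acids are both built from cytosolic acetyl-CoA. The sterol branch runs through mevalonate, farnesyl diphosphate and squalene to lanosterol, which a chain of membrane enzymes trims to cholesterol. The fatty acid branch supplies acetyl-CoA and NADPH, assembles palmitate, and then elongates, desaturates and activates the chains. Genes of both branches are known targets of the sterol regulatory element-binding proteins, encoded by Srebf1 and Srebf2, which are held in the endoplasmic reticulum by Insig proteins and carried to the Golgi by Scap when sterol is low. In liver the Srebf1 product is known mainly for fatty acid genes and the Srebf2 product for sterol genes, and mTOR complex 1 is known as an input to both.

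Genes that fell under rapamycin in GN5 cells lie in both branches, and the sequences around their transcription starts are shown for a pair from each: Scd and Scd2 of the fatty acid branch, and Cyp51 and Mvd of the sterol branch. Each is a 300-base window of the GRCr8 assembly from RefSeq, 250 bases before and 50 bases from the annotated start, printed on the gene's own strand. Capitals mark the NF-Y box CCAAT on either strand. The windows lie at chr1:253231682-253231981 on the minus strand for Scd, chr1:253118127-253118426 on the plus strand for Scd2, chr4:30991443-30991742 on the plus strand for Cyp51 and chr19:67414925-67415224 on the minus strand for Mvd.
Scd: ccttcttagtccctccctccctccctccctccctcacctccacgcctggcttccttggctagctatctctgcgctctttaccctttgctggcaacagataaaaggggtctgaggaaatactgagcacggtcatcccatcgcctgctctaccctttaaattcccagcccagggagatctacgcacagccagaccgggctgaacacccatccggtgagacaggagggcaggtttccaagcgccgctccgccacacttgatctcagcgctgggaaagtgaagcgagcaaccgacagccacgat
Scd2: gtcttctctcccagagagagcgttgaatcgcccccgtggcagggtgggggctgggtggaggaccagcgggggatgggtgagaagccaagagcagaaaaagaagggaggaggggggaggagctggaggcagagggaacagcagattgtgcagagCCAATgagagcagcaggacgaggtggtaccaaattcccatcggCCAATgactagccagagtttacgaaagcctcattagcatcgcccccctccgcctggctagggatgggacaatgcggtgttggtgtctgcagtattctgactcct
Cyp51: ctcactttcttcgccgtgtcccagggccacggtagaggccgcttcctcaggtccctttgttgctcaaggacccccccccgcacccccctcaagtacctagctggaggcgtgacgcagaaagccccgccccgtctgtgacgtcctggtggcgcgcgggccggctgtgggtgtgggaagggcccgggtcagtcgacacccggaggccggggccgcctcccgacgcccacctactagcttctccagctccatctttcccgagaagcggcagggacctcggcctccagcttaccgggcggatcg
Mvd: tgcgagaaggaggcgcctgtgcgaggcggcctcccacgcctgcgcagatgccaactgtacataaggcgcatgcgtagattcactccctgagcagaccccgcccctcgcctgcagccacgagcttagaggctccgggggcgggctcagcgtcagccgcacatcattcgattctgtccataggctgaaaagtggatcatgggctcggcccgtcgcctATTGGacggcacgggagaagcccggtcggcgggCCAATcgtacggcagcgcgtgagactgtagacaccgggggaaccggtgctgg
The windows of Scd2 and Mvd each held 2 matches, and those of Scd and Cyp51 held 0. The box was present in 12 of 15 sterol windows, 7 of 13 fatty acid windows and 4 of 5 regulator windows, against 37.5% of all 33465 RefSeq windows of that length. The genes with a window are not the same set as the genes with a probe. Insig1, Hmgcs1, Mvk, Lss and Elovl1 had a window but no probe, and Pmvk, Fdft1, Sqle, Acaca and Elovl6 a probe but no window. Matches to the E-box CACGTG were in 4 of the 33 member windows and in 6.42% of all windows. The letters TCACNCCAC, a core of the sterol regulatory element, were in 0 of the 33 member windows and in 1.12% of all windows. All motifs were searched on both strands, and the 4 windows shown held no match to the last 2, so no matches of different motifs overlapped there.

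Between 7427 and 8483 probes were detected on an array, a probe being detected at a detection p of at most 0.01. Arrays of a group correlated at 0.9924 to 0.9965, arrays of a line under different treatments at 0.9897 to 0.995 and arrays of different lines at 0.9163 to 0.9231. The scanner signal of GN5 vehicle replicates 2 and 3 had medians of 105.9 and 96.17, while the other 10 arrays lay between 74.28 and 82.7. For results that rest on GN5 vehicle cells, the calls that were lost without these 2 arrays are given. Of 9 hepatocyte markers with a probe, 8, albumin among them, were detected in 0 of the 4 groups, and transferrin (Tf) in each. Of 5 biliary and progenitor markers with a probe, the keratins Krt7 and Krt8 were detected in both lines, Krt19 in H5D cells alone, and Epcam and Prom1 in 0 of the 4 groups. All 5 mesenchymal markers with a probe were detected in GN5 cells, against 2 of 5 in H5D cells, where Col1a1, Col1a2 and Tagln were not detected. In bulk RNA, fewer cells of a type and less RNA per cell cannot be told apart.

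In GN5 cells 7 of the 30 tested genes of the module were called with rapamycin, all lower than with vehicle. These were the desaturases Scd, Scd2 and Fads1, the sterol enzymes Cyp51, Dhcr7 and Mvd, and the transcription factor gene Srebf1. Over all probes tested in GN5 cells 6.91% were called, 3.46% as lower, at an adjusted p below 0.05 from limma. Below a log2 fold change of 0 lay 27 of the 30 genes, against 48.8% of all tested probes. All 30 genes were detected on each of the 6 GN5 arrays, so none entered through 1 group only.

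The deepest falls were in the stearoyl-CoA desaturases, which place the first double bond in saturated fatty acids. Scd had normalised log2 intensities of 6.79, 6.72 and 6.60 on the rapamycin arrays, against 8.03, 7.69 and 7.94 on the vehicle arrays. Every rapamycin value lay below every vehicle value. Scd fell by 1.19 on the log2 scale (SE 0.112), a 2.28-fold change, with a limma adjusted p of 0.000195. Its paralog Scd2 had log2 intensities of 6.54, 7.07 and 6.91 with rapamycin, against 8.31, 7.93 and 7.75 with vehicle. The groups again did not overlap, and both were more spread than for Scd. Scd2 fell by 1.16 (SE 0.161), or 2.23-fold, with an adjusted p of 0.00178. Whether a probe of one desaturase also reads the other was not tested, in either direction. In H5D cells the Scd probe was at the detection limit while the Scd2 probe was bright, and in GN5 cells both probes were bright under vehicle and fell by similar amounts.

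Fads1, a front-end desaturase of polyunsaturated fatty acid synthesis, had log2 intensities of 8.50, 8.70 and 8.72 in rapamycin-treated GN5 cells, against 9.13, 9.19 and 9.15 in vehicle-treated GN5 cells. The vehicle arrays were tightly grouped and all rapamycin arrays were lower. The log2 difference was -0.51 (SE 0.0983, adjusted p = 0.0111), and without vehicle replicate 2 the adjusted p was 0.0586. Fads2, its partner desaturase, had 7.31, 7.15 and 7.37 with rapamycin and 7.42, 7.50 and 7.49 with vehicle. Those groups did not overlap either, but the difference of -0.19 (SE 0.0979) did not pass the test (adjusted p = 0.254).

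All fatty acid genes that fell in GN5 cells were desaturases, 3 of the 4 on the array, and the other 8 tested genes of the branch did not pass the test. Acly, Me1 and Acss2, which supply acetyl-CoA and NADPH, had log2 differences of -0.09, -0.01 and -0.13. The elongase Elovl5 was at 0.10. The acyl-CoA synthetases Acsl1, Acsl3, Acsl4 and Acsl5, which activate long-chain fatty acids, lay between -0.30 and -0.03, and their adjusted p-values were 0.139 to 0.914. Acsl3 was the only synthetase whose rapamycin arrays, 7.66, 7.76 and 7.76, all lay below its vehicle arrays, 8.04, 8.10 and 7.84.

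**Figure D1:**
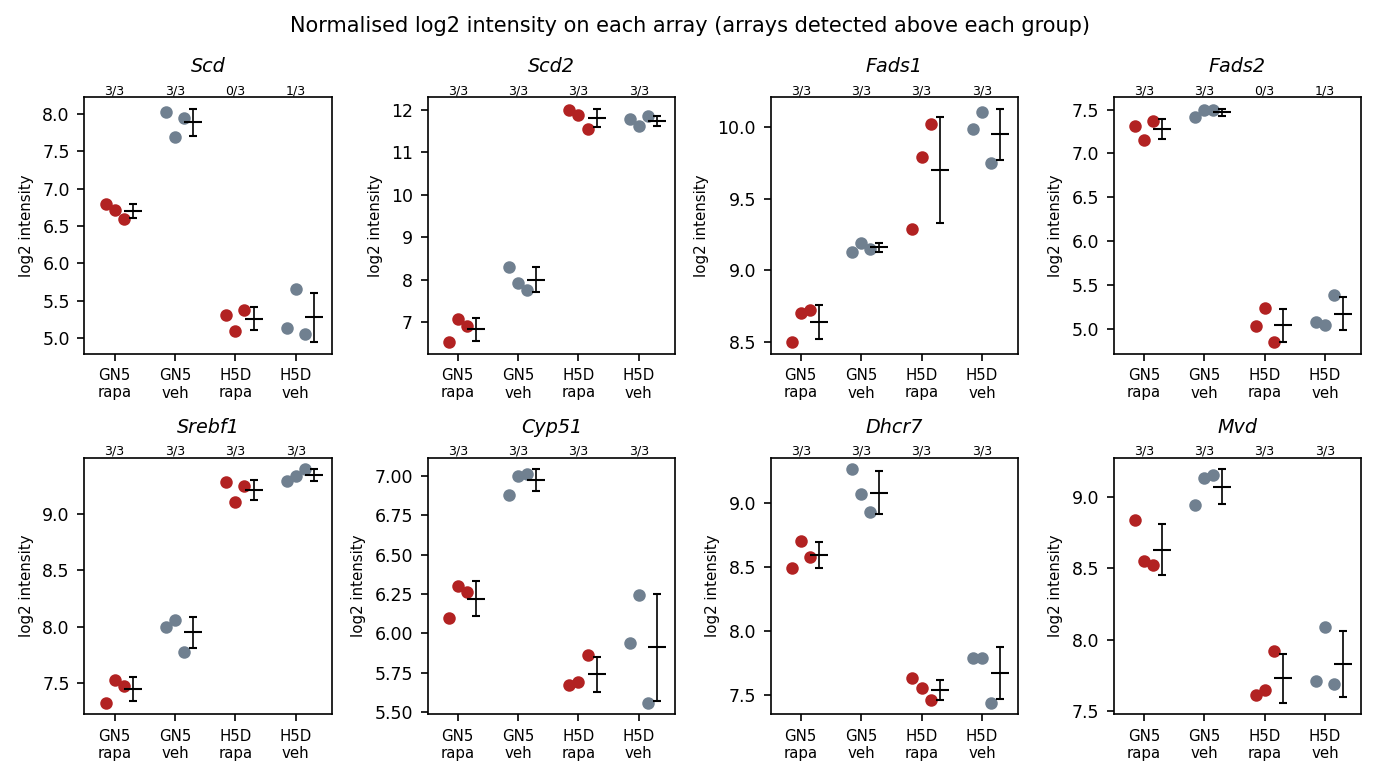
Normalised log2 intensity (y axis, own scale per gene) of 8 genes on each array of the 4 groups, with the group mean and SD as a bar and the number of arrays with a detected signal above each group. In GN5 cells each rapamycin array lies below each vehicle array for all 8 genes. H5D rapamycin and vehicle arrays overlap for 7 of them and lie slightly apart for Srebf1. Shown are the 7 genes called in GN5 cells, with Fads2, so the separation in GN5 cells is largely built into the choice. The share of all probes with separate groups was not computed, and these counts do not compare the lines.

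In the sterol branch of GN5 cells 3 of 15 genes fell. Cyp51, the lanosterol demethylase, had log2 intensities of 6.10, 6.30 and 6.26 with rapamycin, against 6.88, 7.00 and 7.01 with vehicle. The gap between the groups was wider than the range within either. Cyp51 fell by 0.74 (SE 0.0987), or 1.68-fold, with an adjusted p of 0.00133. Dhcr7, the reductase that completes cholesterol, had 8.49, 8.70 and 8.58 with rapamycin, against 9.26, 9.07 and 8.93 with vehicle. No values overlapped, and the difference was -0.49 (SE 0.111, adjusted p = 0.023).

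Mvd, the decarboxylase that ends the mevalonate steps, had log2 intensities of 8.84, 8.55 and 8.52 with rapamycin and 8.94, 9.13 and 9.15 with vehicle in GN5 cells. Rapamycin replicate 1 came close to vehicle replicate 1, and the groups did not overlap. The difference of -0.44 (SE 0.115) was the weakest call of the 7, with an adjusted p of 0.0444. The other 12 sterol genes did not pass the test and ranged from -0.35 for Fdps, which makes farnesyl diphosphate, to 0.02 for Fdft1, the squalene synthase. Fdps had 10.23, 10.22 and 10.17 with rapamycin and 10.30, 10.59 and 10.76 with vehicle, all lower with rapamycin, at an adjusted p of 0.107. Sc5d, Ebp and Nsdhl, which modify the sterol rings, had differences of -0.26, -0.27 and -0.26, and the squalene epoxidase Sqle of -0.10. The Tm7sf2 probes, for a sterol reductase, gave -0.14 and -0.27 (adjusted p = 0.523 and 0.136).

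Among the regulators, Srebf1 had log2 intensities of 7.33, 7.53 and 7.48 in rapamycin-treated GN5 cells, against 8.00, 8.06 and 7.78 in vehicle-treated GN5 cells. All rapamycin arrays were lower. Srebf1 fell by 0.50 (SE 0.107, 1.42-fold, adjusted p = 0.0189). The 2 other regulators tested did not pass: Scap, the escort protein, was at -0.21 (adjusted p = 0.267) and Insig2, the retention protein, at 0.18 (adjusted p = 0.33).

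Scd, Scd2 and Cyp51 kept their calls when any 1 of the 6 GN5 arrays was left out, with adjusted p-values up to 0.0145. Srebf1 lost its call without any 1 rapamycin array or without vehicle replicate 2 (highest adjusted p 0.0955), Dhcr7 without the same 4 arrays (highest 0.0873), and Mvd without rapamycin replicate 2 or 3 or vehicle replicate 2 or 3 (highest 0.167). The fewest calls, 3, were left without vehicle replicate 2, and these were Scd, Scd2 and Cyp51. Without vehicle replicates 2 and 3 together, 4 genes were called. These were Scd at -1.33 (adjusted p = 0.000755), Scd2 at -1.47 (0.00184), Cyp51 at -0.66 (0.0315) and Dhcr7 at -0.67 (0.0311), and the remaining vehicle array was assumed to vary like the rapamycin arrays. Srebf1 (-0.55, 0.0632), Fads1 (-0.49, 0.0993) and Mvd (-0.30, 0.364) were not called.

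Set side by side, the branches of GN5 cells had nearly the same median log2 difference, -0.24 over 15 sterol genes and -0.23 over 12 fatty acid genes, while the median of all tested probes was 0.01. Their spreads differed. The sterol values ran from -0.74 to 0.02 and the fatty acid values from -1.19 to 0.10, with Scd, Scd2 and Fads1 at the low end, Fads2 at -0.19 amid the synthetases, and Acly, Me1, Acsl5 and Elovl5 near or above -0.1. Relative to the mean of the vehicle arrays, the median sterol gene on the 3 rapamycin arrays was at -0.27, -0.26 and -0.20, and the median fatty acid gene at -0.34, -0.19 and -0.13. The vehicle arrays themselves lay at 0.01, -0.06 and 0.06 for sterol genes and 0.04, 0.03 and 0.01 for fatty acid genes. They set the baseline and so lie near 0 by construction, and the gap between the groups was not tested. The median over the 4 desaturases was at -0.88, -0.69 and -0.76 on the rapamycin arrays.

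**Figure D2:**
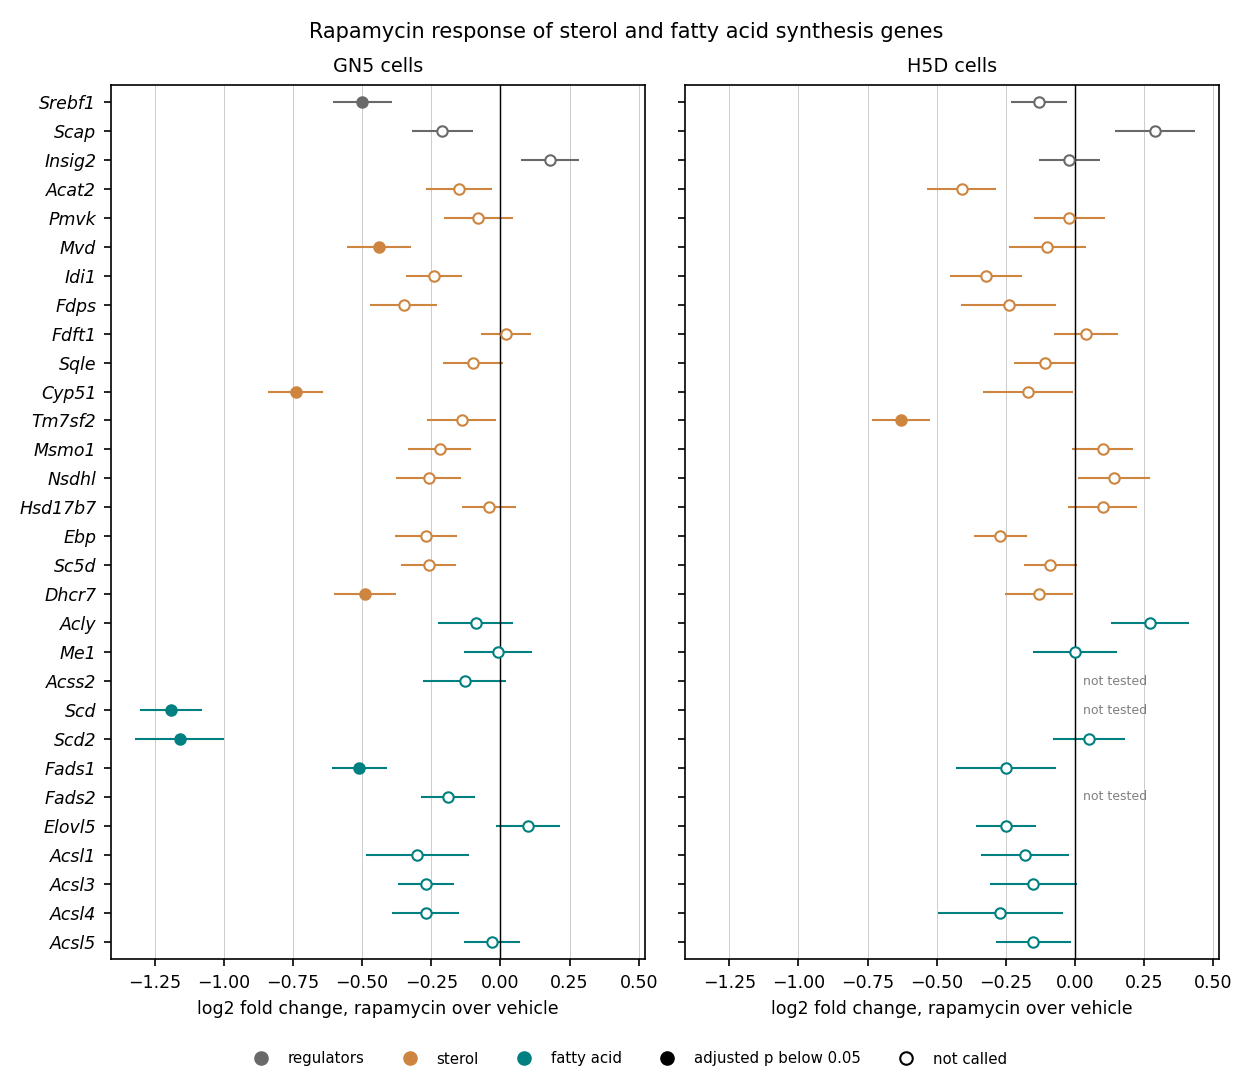
Log2 fold change of rapamycin over vehicle (x axis) for the 30 genes tested in GN5 cells (left) and the 27 tested in H5D cells (right). The order is regulators, sterol branch, fatty acid branch. Scd, Fads2 and Acss2 are marked as not tested in H5D cells. Points are limma estimates with standard errors, filled where the adjusted p is below 0.05: 7 genes in GN5 cells, led by Scd and Scd2, and Tm7sf2 alone in H5D cells.

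These log2 differences depend on quantile normalisation. When arrays were scaled to a common median instead, the median of all tested GN5 probes moved to -0.139 and the calls over all probes shifted from an even split, 258 lower and 257 higher, to 754 lower and 103 higher. Relative to that shift the sterol median was -0.27 and the fatty acid median -0.21. The 7 genes kept their calls, and 11 were called in all.

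In GN5 cells 3 mesenchymal markers also moved with rapamycin: Tagln rose by 0.68 (adjusted p = 0.00416) and Fn1 by 0.54 (adjusted p = 0.0375), while Col1a1 fell by 0.75 (adjusted p = 0.0046). Vim and Col1a2 did not pass the test, and without GN5 vehicle replicates 2 and 3 only Tagln was called (Fn1 0.18, Col1a1 0.091, as adjusted p). The 8 hepatocyte markers were undetected in both groups, and Tf and the keratins were not called. Their part in the values of the sterol and fatty acid genes was not tested.

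In H5D cells 1 of 27 tested genes passed, against 0.722% of all tested probes, 0.405% as lower. Tm7sf2 had log2 intensities of 5.96, 6.01 and 5.76 on its brighter probe with rapamycin, against 6.53, 6.50 and 6.57 with vehicle, with no overlap. The fall was 0.63 (SE 0.105, 1.54-fold, adjusted p = 0.0366). Its other probe, detected on 1 of 3 rapamycin arrays, read 5.35, 5.37 and 5.37 against 5.37, 5.70 and 5.87, and its difference of -0.28 did not pass (adjusted p = 0.316). The call was lost when any 1 of the 6 H5D arrays was left out, with adjusted p-values of 0.053 to 0.165.

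None of the genes that fell in GN5 cells was called in H5D cells. Scd2 read 11.98, 11.87 and 11.55 with rapamycin and 11.77, 11.61 and 11.85 with vehicle, which overlapped, with a log2 difference of 0.05 (95% interval -0.24 to 0.35). Scd, Fads2 and Acss2 were detected on 0 of 3 rapamycin and 1 of 3 vehicle arrays each and could not be tested. Cyp51 was at -0.17, Dhcr7 at -0.13, Mvd at -0.10, Srebf1 at -0.13 and Fads1 at -0.25, with adjusted p-values of 0.521 to 0.743. The Cyp51 values were low in H5D cells, 5.67 to 5.86 with rapamycin and 5.56 to 6.24 with vehicle. The lowest detected value per H5D array was 5.28 to 5.46, so a Cyp51 fall as deep as in GN5 cells could not have been measured in full. Acat2, the thiolase that opens the sterol pathway, had 10.37, 10.23 and 10.09 with rapamycin and 10.73, 10.76 and 10.43 with vehicle. Its arrays did not overlap, and its difference of -0.41 did not pass (adjusted p = 0.158). The Idi1 isomerase was at -0.32, Ebp at -0.27 and Elovl5 at -0.25, all with adjusted p-values above 0.2.

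The branch medians in H5D cells were -0.11 over 15 sterol genes and -0.15 over 9 fatty acid genes, against -0.01 over all tested probes, but under common-median scaling they were 0.09 and 0.05 where the median of all probes was 0.172. Relative to all probes they were then -0.08 and -0.12. Single arrays moved them too: the sterol median was -0.07 without vehicle replicate 2 and -0.17 without vehicle replicate 3, and the fatty acid median was -0.04, -0.07 and -0.08 without rapamycin replicate 1, rapamycin replicate 3 and vehicle replicate 1. Calls over all probes went with the scaling as well, 32 lower and 25 higher against 8 lower and 156 higher. On single arrays the median sterol gene was at -0.10, -0.13 and -0.06 with rapamycin and at 0.03, 0.04 and -0.05 with vehicle. The median fatty acid gene was at -0.11, -0.03 and -0.11 with rapamycin and at 0.05, -0.13 and -0.09 with vehicle, which overlapped. Here too the vehicle arrays set the baseline, so a gap between the groups is partly built in.

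**Figure D3:**
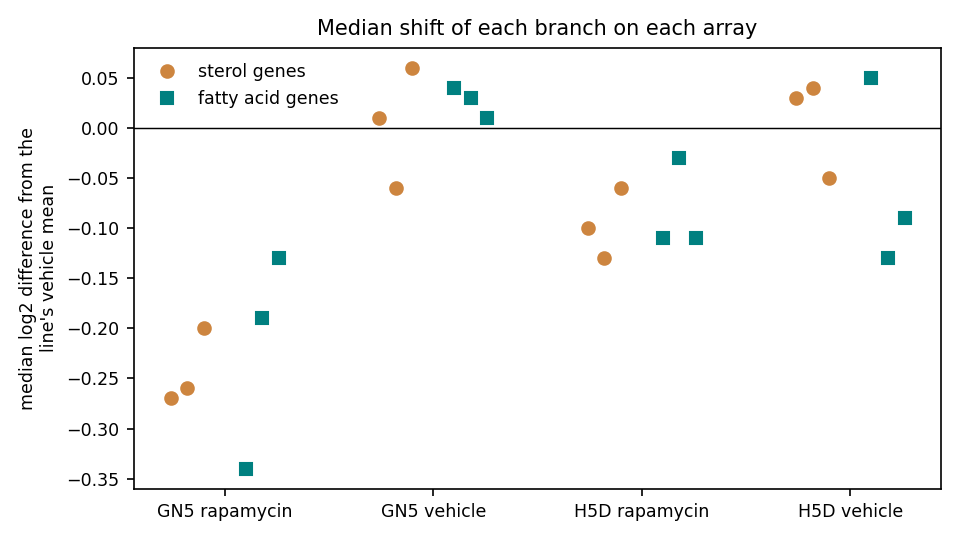
Median log2 difference from the line's own vehicle mean (y axis) over the sterol genes (circles) and the fatty acid genes (squares) on each of the 12 arrays, by group, after quantile normalisation. The vehicle arrays set the baseline and lie near 0 by construction. In GN5 cells both branches lie between -0.34 and -0.13 with rapamycin and between -0.06 and 0.06 with vehicle, and in H5D cells between -0.13 and -0.03 with rapamycin and between -0.13 and 0.05 with vehicle.

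Whether the lines responded differently was tested on all 12 arrays, as the GN5 response minus the H5D response, and 2 of 30 genes were called as lower, Scd2 and Scd. Over all tested probes 1.41% were called, 0.668% as lower. Scd entered through GN5 cells alone, and among genes detected on all 12 arrays Scd2 was the 1 called (adjusted p = 0.0225). For Scd2 the difference was -1.21 (SE 0.229, adjusted p = 0.0152), with Scd2 lower on all GN5 rapamycin arrays and overlapping in H5D cells. The call was lost without H5D rapamycin replicate 2 (adjusted p = 0.0562), without the detection filter (0.0574) and with the replicate number as a block (0.0716). Without GN5 vehicle replicates 2 and 3 together the Scd2 difference was -1.53. Scd was undetected on 5 of the 6 H5D arrays, so a fall there could not have been measured, and its value of -1.16 does not compare the lines. In the same contrast the biliary keratin gene Krt8 was at -0.71 (adjusted p = 0.00796), 1 of 3 biliary markers tested. The mesenchymal Tagln, 1 of 5 tested, was at 0.78 (adjusted p = 0.0246), but it was undetected in H5D cells and does not compare the lines. Neither was called without GN5 vehicle replicates 2 and 3 (adjusted p = 0.087 and 0.0882), and their part in the difference was not tested.

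Of the 15 sterol genes 0 were called in this difference by limma, with 3 lower and 1 higher at an unadjusted p below 0.05, where 7.04% and 7.42% of all probes lay. Cyp51 was at -0.58 (SE 0.197, adjusted p = 0.181), Dhcr7 at -0.36 (adjusted p = 0.334) and Nsdhl at -0.39 (adjusted p = 0.34). For Cyp51 the H5D arrays lay close to the lowest detected values. Tm7sf2 was at 0.48 (adjusted p = 0.183) on its brighter probe and at 0.02 (adjusted p = 0.921) on its other probe. Scap was at -0.50, from -0.21 in GN5 and 0.29 in H5D cells, with an adjusted p of 0.218. The branch medians were -0.10 for sterol and -0.09 for fatty acid genes (-0.12 over the 9 detected on all arrays), against 0.01 over all probes. They were small beside what 1 array moved: the sterol median was -0.02 without GN5 vehicle replicate 3 and -0.19 without H5D vehicle replicate 2. The fatty acid median was -0.02 and -0.03 without H5D vehicle replicate 2 and H5D rapamycin replicate 2, -0.16 without H5D vehicle replicate 3, and -0.14 without either GN5 vehicle replicate 3 or H5D vehicle replicate 1. Common-median scaling put the median of all probes at -0.294 and changed the calls from 57 lower and 63 higher to 236 lower and 16 higher, with 5 members called. Relative to that shift the branch medians were -0.14 and -0.08.

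Averaged over both lines on the same 12 arrays, 9 of 30 genes were called, all lower with rapamycin, against 9.11% of all probes called and 4.36% called as lower. They were 5 sterol genes, namely Cyp51 at -0.46 (adjusted p = 0.0111), Tm7sf2 at -0.39 (0.0111), Dhcr7 at -0.31 (0.0324), Idi1 at -0.28 (0.0464) and Ebp at -0.27 (0.0305), with Scd, Scd2, Fads1 and Srebf1. The Tm7sf2 value is from its brighter probe, and its other probe, at -0.27, was not called (adjusted p = 0.0525). For Scd the H5D part of this average rests on arrays at the detection limit. For the markers Tagln and Col1a1, given below, it rests on undetected arrays, so their values reflect GN5 cells only. Idi1, the isomerase of the isoprenoid unit, read 8.79, 9.04 and 8.93 with rapamycin against 9.17, 9.09 and 9.22 with vehicle in GN5 cells. In H5D cells it read 8.08, 8.06 and 8.47 with rapamycin against 8.47, 8.62 and 8.47 with vehicle. The GN5 groups were apart and the H5D groups met at 8.47. Ebp, the sterol isomerase, read 9.31, 9.02 and 9.00 with rapamycin against 9.33, 9.32 and 9.49 with vehicle in GN5 cells. In H5D cells it read 8.94, 8.89 and 8.99 with rapamycin against 9.25, 9.17 and 9.23 with vehicle. All rapamycin arrays were lower in both lines. The Scd2 average came from GN5 cells, with -1.16 there and 0.05 in H5D cells. On leaving out 1 array at a time, Idi1 kept its call in 1 of 12 runs, Fads1 in 2, Dhcr7 in 4 and Ebp in 6. Cyp51, Tm7sf2, Scd, Scd2 and Srebf1 kept theirs in all 12. Under common-median scaling 3 of the 9 calls were kept. Without GN5 vehicle replicates 2 and 3 together, only Scd and Scd2 were called, and the sterol genes had adjusted p-values of 0.0652 to 0.203. Markers of other cell types were called in this average as well, namely Tf at 0.45, Krt7 at 0.31, Fn1 at 0.42, Tagln at 0.29 and Col1a1 at -0.41 (adjusted p-values of 0.00716 to 0.0338), none of them without those 2 arrays (0.0885 to 0.158), and their part in the values was not tested.

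Between the lines the called sterol genes were all higher in GN5 cells, while most called fatty acid genes that were detected on every array were lower. Under vehicle, 11 of 15 sterol genes were called, all higher in GN5 than in H5D cells, with a median log2 difference of 0.75 against 0.04 over all probes. Most probes differed between the lines, 63.3% in all, 32.3% higher and 31% lower in GN5. On the rapamycin arrays, which the first comparison did not use, 10 of 15 sterol genes were called, all higher in GN5, against 72.2% of all probes called, 38.1% higher and 34.1% lower, and the sterol median was 0.72 against 0.05. Markers of other cell types differed too. Under vehicle the mesenchymal Fn1 and the keratin Krt8 were higher in GN5, and Col1a1, Col1a2 and Tagln were detected in GN5 alone. Tf, Krt7 and the leukocyte marker Cd14 were lower in GN5, by 5.26-fold to 13.15-fold, and Krt19 was not detected there. Ptprc, the other leukocyte marker with a probe, was not detected in any group. The mesenchymal Vim was not called between the lines under vehicle, at means of 13.23 in GN5 and 13.06 in H5D cells. Their part in the line differences was not tested.

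Sc5d, an oxidase of the late steps, was the sterol gene farthest apart. It read 8.88, 8.64 and 8.76 in GN5 vehicle cells, against 7.13, 7.12 and 7.00 in H5D vehicle cells, with no overlap. It was 3.19-fold higher in GN5 (log2 difference 1.68, SE 0.11, adjusted p = 1.88e-07), and 2.83-fold higher under rapamycin (adjusted p = 1.11e-08). Dhcr7 was 2.66-fold, Mvd 2.36-fold, Cyp51 2.08-fold and Fdft1 2.05-fold higher in GN5 vehicle cells, with adjusted p-values of 0.000165 or less. Fdft1 read 8.83, 8.78 and 8.80 in GN5 vehicle cells and 7.71, 7.67 and 7.93 in H5D vehicle cells, and the line difference under rapamycin was 2.02-fold. Hsd17b7, Fdps, Acat2 and Idi1 were 1.88-fold, 1.82-fold, 1.68-fold and 1.56-fold higher in GN5 vehicle cells. The smallest called differences were Nsdhl (1.46-fold) and Msmo1 (1.39-fold), and neither was called under rapamycin. Without GN5 vehicle replicates 2 and 3, Fdps (log2 difference 0.61, adjusted p = 0.0726) and Nsdhl (0.52, 0.0763) were not called, and the other 9 sterol genes kept their calls.

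The 4 sterol genes not called under vehicle were Pmvk, a mevalonate-pathway kinase, with Sqle, Ebp and the brighter Tm7sf2 probe. The other Tm7sf2 probe was not called under vehicle either (log2 difference 0.24, adjusted p = 0.159). Under rapamycin it was called at 0.26 (adjusted p = 0.0199), with 1 of 3 H5D arrays detected, while the brighter probe was not (0.19, adjusted p = 0.12). Cyp51 was closer between the lines under rapamycin, 1.39-fold (log2 difference 0.48, SE 0.1, adjusted p = 0.000969), its H5D arrays reading 5.67, 5.69 and 5.86. Its response difference between the lines did not pass the test, as given above. Sqle passed under rapamycin by a small margin (1.21-fold, adjusted p = 0.0254). Without GN5 vehicle replicates 2 and 3, the sterol median under vehicle was 0.65.

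**Figure D4:**
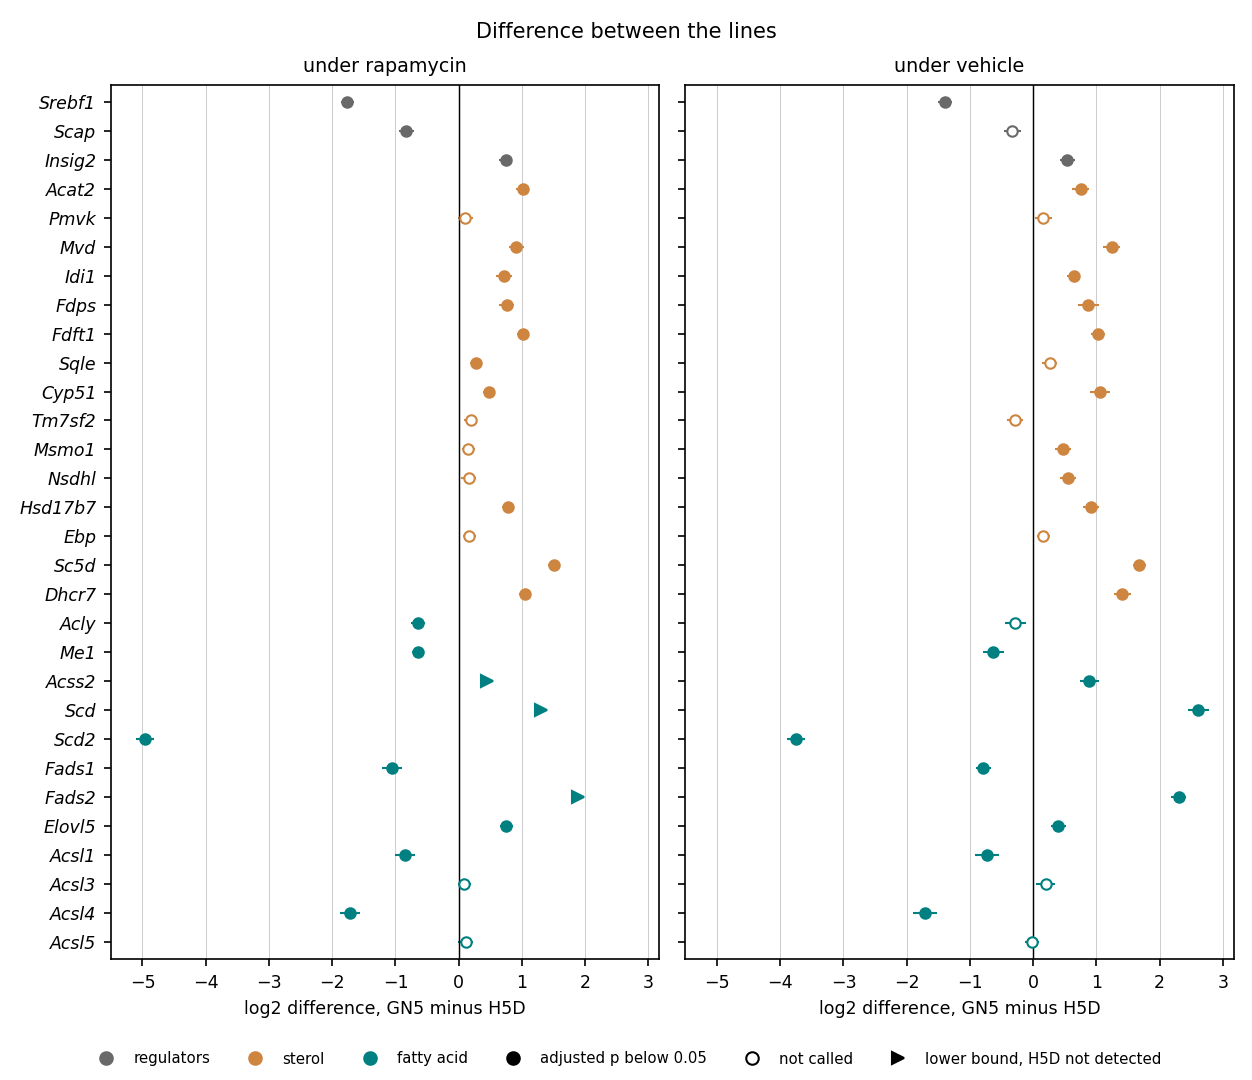
Log2 difference GN5 minus H5D (x axis) for the 30 tested genes on the rapamycin arrays (left) and the vehicle arrays (right). Points are limma estimates with standard errors, filled where the adjusted p is below 0.05, and triangles are lower bounds where H5D was not detected. On the vehicle arrays Scd, Fads2 and Acss2 are drawn as filled points, though each was detected on only 1 of 3 H5D arrays. Called sterol genes all lie right of 0, while fatty acid genes run from Scd2 at -4.96 under rapamycin and -3.75 under vehicle to Fads2 and Scd on the right.

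Of the 9 fatty acid genes detected on all vehicle arrays, 5 were lower and 1, Elovl5, higher in GN5 than in H5D cells, and on the rapamycin arrays 6 were lower and Elovl5 again higher. Scd, Fads2 and Acss2 entered through GN5 alone, where they were detected on all arrays. They are therefore given here as values under vehicle and as bounds under rapamycin, with no p-value, though the counts of called genes between the lines include them. Scd2 read 8.31, 7.93 and 7.75 in GN5 vehicle cells, against 11.77, 11.61 and 11.85 in H5D vehicle cells. It was 13.42-fold lower in GN5 (log2 difference -3.75, SE 0.149, adjusted p = 2.77e-09), and 31.08-fold lower under rapamycin (-4.96, SE 0.146, adjusted p = 1.19e-11). Scd read 8.03, 7.69 and 7.94 in GN5 vehicle cells against 5.13, 5.66 and 5.05 in H5D vehicle cells, where 1 of 3 arrays was detected. Under rapamycin, with Scd detected on 0 of 3 H5D arrays, it was at least 2.47-fold higher in GN5.

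Of the front-end desaturases, Fads2 read 7.42, 7.50 and 7.49 in GN5 vehicle cells, against 5.08, 5.04 and 5.39 in H5D vehicle cells, 1 of them detected. Under rapamycin it was at least 3.67-fold higher in GN5. Fads1 read 9.13, 9.19 and 9.15 in GN5 vehicle cells, against 9.99, 10.11 and 9.75 in H5D vehicle cells. Fads1 was 1.73-fold lower in GN5 under vehicle (adjusted p = 0.000159) and 2.08-fold lower under rapamycin (adjusted p = 6.22e-05).

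Acsl4, a synthetase known for its preference for arachidonic acid, read 7.32, 7.71 and 7.55 in GN5 vehicle cells and 9.42, 9.50 and 8.80 in H5D vehicle cells. The lines did not overlap, and Acsl4 was 3.28-fold lower in GN5 (adjusted p = 1.14e-05) and 3.29-fold lower under rapamycin. Acsl1 and Me1 were 1.66-fold and 1.55-fold lower in GN5 vehicle cells, and without GN5 vehicle replicates 2 and 3 neither was called (adjusted p = 0.105 and 0.279). Acss2 was detected on 1 of 3 H5D vehicle arrays and was at least 1.35-fold higher in GN5 under rapamycin. Elovl5 was 1.32-fold higher under vehicle (adjusted p = 0.0157, and 0.0784 without GN5 vehicle replicates 2 and 3) and 1.68-fold higher under rapamycin. Acsl3 and Acsl5 did not pass in either comparison. Acly, the citrate lyase, passed on the rapamycin arrays alone (1.56-fold lower, adjusted p = 0.000303).

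Over the 9 fatty acid genes detected on all arrays compared, the median log2 difference between the lines was -0.63 under vehicle and -0.64 under rapamycin. That filter leaves out Scd, Fads2 and Acss2, which read higher in GN5. Over all 12 tested fatty acid genes the medians were -0.15 under vehicle and -0.28 under rapamycin, so the size of the branch median depends on the filter. Common-median scaling changed the calls over all probes under rapamycin from 2828 lower and 3160 higher to 3504 lower and 1855 higher.

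Srebf1, the regulator known for the fatty acid branch, was lower in GN5 cells, where sterol enzymes were higher. It read 8.00, 8.06 and 7.78 in GN5 vehicle cells, against 9.29, 9.33 and 9.39 in H5D vehicle cells, and the lines were far apart relative to their spread. The difference was -1.39 (SE 0.112, 2.62-fold, adjusted p = 1.1e-06) under vehicle and -1.76 (3.39-fold, adjusted p = 6.58e-09) under rapamycin. Insig2 read 8.29, 8.00 and 8.20 in GN5 vehicle cells against 7.76, 7.55 and 7.55 in H5D vehicle cells, and was 1.45-fold higher (adjusted p = 0.00233). Scap was not called under vehicle and was 1.78-fold lower in GN5 under rapamycin (adjusted p = 4.6e-05).

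In pathways next to synthesis 4 of 27 tested genes (14.8%) were called with rapamycin in GN5 cells, against 6.91% of all probes. Of 6 tested sterol transport and LXR genes in GN5 cells, 1 rose: Soat1, which esterifies cholesterol, averaged 6.95 ± 0.19 with rapamycin and 6.46 ± 0.18 with vehicle (SD, n = 3 each, adjusted p = 0.0381 by limma). Of 12 fatty acid oxidation genes 1 rose, the acyl-CoA dehydrogenase Acadl, by 0.44 (adjusted p = 0.0201). Of 9 genes of triglyceride synthesis and storage, the lipase Mgll rose by 0.83 (adjusted p = 0.00326) and Dgat2, which completes triglyceride, fell by 0.54 (adjusted p = 0.00955). None of these 4 was called without GN5 vehicle replicates 2 and 3 (adjusted p-values of 0.0707 to 0.382).

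Between the lines, 8 of 12 oxidation genes were lower in GN5 vehicle cells and 1 was higher, against 63.3% of all probes called and 31% called as lower. Cpt1a, the mitochondrial gate of oxidation, was 5.99-fold lower. Without GN5 vehicle replicates 2 and 3 the oxidation genes other than Ech1 kept their calls, and Cpt1a was 5.77-fold lower. Of 9 tested genes of triglyceride synthesis and storage, 4 were lower and 2 higher in GN5 vehicle cells. The lipid droplet protein gene Plin2 was 11.57-fold and Dgat2 6.57-fold lower in GN5 than in H5D vehicle cells, and 9.37-fold and 6.69-fold lower without those 2 arrays. Mgll, 1 of the 2 higher genes, was not detected in H5D cells and entered through GN5 cells alone. Of 9 tested sterol transport and LXR genes, 3 were lower and 5 higher in GN5 vehicle cells, against 31% and 32.3% of all probes. The 3 lower genes were undetected in GN5 cells and entered through H5D cells alone. Stard4 and Npc1, among the 5 higher, were detected on 2 of 3 H5D vehicle arrays and entered through GN5 cells alone. Their direction follows in part from the filter, so these counts are a description only. Nr1h3, the oxysterol receptor LXR alpha, was detected on all H5D arrays and on 0 of the 6 GN5 arrays, as were the sterol transporter gene Abcg1 and the lipoprotein receptor gene Scarb1. Npc2, a lysosomal sterol carrier, was 3.06-fold higher in GN5 vehicle cells (adjusted p = 7.69e-07), and 3.32-fold higher without those 2 arrays.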

How the data were processed

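Total RNA was hybridised to 12 bead arrays, 3 for each line and treatment, and groups and replicate numbers were taken from the sample titles. The deposited bead summary table gave each probe's scanner signal as a linear intensity, not background subtracted or normalised, with a detection p-value per array. Another deposited table held intensities that the authors had quantile normalised in BeadStudio (its version is not given in the sources used here). It was used as an alternative, and its column medians were 80.5 to 80.6. The submitters' processing notes also name Partek 6.3. The number of arrays limits the precision.

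The deposited intensities were put on the log2 scale with neqc in limma 3.58.1 under R 4.3.3 (background from the detection p-values, offset 16, quantile normalisation). Probes detected at p of at most 0.01 on all 3 arrays of at least 1 group compared were tested by lmFit and eBayes, two-sided, with Benjamini-Hochberg adjustment over all of them, and called at an adjusted p below 0.05. This gave 7449 probes in GN5, 7895 in H5D, 8539 over all 12 arrays, 8279 between the vehicle groups and 8288 between the rapamycin groups. Within-line and between-line comparisons used 6 arrays, and they share arrays with each other and with the 12-array contrasts. Standard errors (SE) are limma's. The brightest probe stood for a gene. Where a group had no detected array for a gene, only a bound is given, the other group's mean set against, per array, the higher of its own value and the lowest value among detected probes. Saturation was not assessed.

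Of 22523 probes, 13793 had 1 symbol, 0 several and 8730 none, and 13752 matched a gene table of the GRCr8 assembly by Entrez identifier, from which promoter windows were also taken. A gene's first listed window was used, and 33 of the 39 genes had one. The scripts were tested on simulated data.

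Members, gene lists and tests were chosen with earlier results of these data known. All members were named, and genes of neighbouring lists only where called, up to 4 per list and comparison. Alternatives were the scaling, the offset, the authors' table, the detection filter, the replicate number as a block, all 12 arrays in the fit, the methods' t-test and leaving out each array. Leaving out GN5 vehicle replicates 2 and 3 together was added after seeing the data. In leave-one-out fits with 2 arrays in a group, normalisation over the 12 arrays was kept.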

Additional observations from a re-analysis of the deposited data

Results flagged for a closer look

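The rapamycin response of Scd2 differed between the lines, at -1.21 on the log2 scale (GN5 minus H5D, limma adjusted p = 0.0152): Scd2 was lower on all 3 rapamycin arrays of GN5 and overlapped in H5D. Without the detection filter the adjusted p was 0.0574, without H5D rapamycin replicate 2 it was 0.0562, and with the replicate number as a block 0.0716. Scd also passed, at -1.16, but it was detected on 1 of 6 H5D arrays, so its response there could not be measured and no difference between the lines can be read from it.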

How the results depend on the processing

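Of 65 called gene results 0 changed direction under the alternatives run, while the H5D branch medians did under common-median scaling, to 0.09 for sterol and 0.05 for fatty acid genes. Scaling to a common median gave 11 called genes in GN5 (7 with quantile normalisation), 0 in H5D (1), 5 in the response difference (2) and 3 in the average effect (9). Without the detection filter, over 22523 probes, the counts were 4 in GN5, 0 in H5D and 1 in the difference, and with genes detected on all arrays compared the difference had 1, since Scd was then not tested. The authors' table gave 0 in H5D and the methods' t-test 2. That t-test passed 6 members in GN5 and 2 in H5D at its stated threshold, which includes Benjamini-Hochberg adjustment, and 9 and 3 before adjustment. Without GN5 vehicle replicates 2 and 3 together there were 4 in GN5, 1 in the difference, 2 in the average effect and 17 between the lines under vehicle (22). Leaving out 1 array gave 3 to 8 genes in GN5, 0 to 0 in H5D, 1 to 3 in the difference, 5 to 10 in the average effect, 21 to 23 between the lines under vehicle and 22 to 23 under rapamycin. The counts between the lines include Scd, Fads2 and Acss2, which entered through GN5 alone. Replicate numbers were not stated to pair plates, and same-numbered arrays deviated together at correlations of -0.36 to 0.3. With the replicate number as a block, 5 genes were called in GN5, 0 in H5D, 0 in the difference (Scd 0.0598, Scd2 0.0716) and 5 in the average effect. For other moved values the cause was not tested. Srebf2, Acaca and Elovl6 were below detection everywhere, and Scd, Fads2 and Acss2 nearly so in H5D cells, so falls there could not be measured. Cyp51 lay close to the lowest detected values in H5D cells, so a deep fall there could not be measured in full. Under common-median scaling Cyp51 and Sqle lost their line calls under rapamycin (adjusted p = 0.108 and 0.954).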
